A study of Mus musculus with 2 samples.

Results

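The S100 proteins are small calcium-binding proteins, many of whose genes lie in 1 cluster on mouse chromosome 3. S100a8 and S100a9 pair to form calprotectin, an alarmin and metal-binding protein that neutrophils carry in large amounts, while S100a4, S100a6, S100a10 and S100a11 act mostly inside cells on the cytoskeleton and on annexins at membranes. Slpi, a secreted inhibitor of leukocyte serine proteases, Hp, which encodes the haemoglobin-binding plasma protein haptoglobin, and Lcn2, which encodes the siderophore-binding lipocalin neutrophil gelatinase-associated lipocalin, are secreted proteins known from neutrophils and from inflamed epithelium, liver or fat. The 9 genes are described here, of 32285 in the deposited matrix, in single cells of mouse dorsal skin. The members were chosen by their symbols and from measured values of these same cells, since earlier results on their levels were known. Their levels are therefore given as a description, with no test, and nothing is supported with them.

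The cells came from shaved dorsal skin of wild-type (WT) male mice aged 9 or 108 weeks, with 2 mice pooled for each age, so that each age is 1 library and no spread between animals can be had. The skin was digested with collagenase and dispase and sorted for high MHC class II and the macrophage marker F4/80. No strain was named in the labels, no treatment was given, and age is the only labelled difference between the groups. The barcode suffix that separates the libraries is not tied to an age, so that both are given as library 1 and library 2 of unknown age, with 2396 and 1401 cells kept and median depths of 10761 and 11196 UMIs. A barcode was kept as a cell with 500 genes and 1000 UMIs or more and mitochondrial UMIs of 10% or less, which held for 3797 of 5257. Levels are the UMIs of a gene per 1000000 UMIs of a group (CPM) with exact 95% Poisson intervals, which cover counting error only.

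The label of the samples is macrophage, yet stromal cells were present as well. By markers, 2034 cells were phagocyte-like and 827 fibroblast-like. The 8 phagocyte markers summed to 13938 CPM in the former and 239 CPM in the latter, and the 8 fibroblast markers to 327 and 82657 CPM. The variable genes behind the clusters left out the 9 genes, the other S100 genes and 4 lists of partner and related genes. Names end in like because they were rebuilt from markers, and 7 of 28 clusters that had no such name are called by 2 leading genes. The cells were not evenly spread over the libraries, since 139 of 140 fibroblast-like cells led by Ndufa4l2 and Gal were in library 1 and 296 of 375 Inmt Gdf10 fibroblast-like cells in library 2. Of all barcode sequences 1 occurred in both libraries, and 0 among the cells kept. Doublets were not removed, because Scrublet called only 6.

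S100a8 and S100a9 lie on chromosome 3 at positions 90668978 to 90670035 (plus strand) and 90692632 to 90695721 (minus strand) of GRCm38, separated by 22.6 kb. S100a4 (90603771 to 90606045) and S100a6 (90612882 to 90624181) lie before them on the plus strand, while S100a11 (93520488 to 93526287) and S100a10 (93555080 to 93564643), both on the plus strand, lie 2825 kb further on and 28.8 kb apart. Slpi (164354070 to 164389095) and Lcn2 (32384633 to 32388252) are on the minus strand of chromosome 2, and Hp (109575128 to 109579172) is on the minus strand of chromosome 8. RefSeq starts were found for 7 of the 9 genes, with S100a10 and Hp missing. Bases before them are shown for S100a8, S100a9 and Slpi, 3 of the genes with UMIs in every one of the 5 neutrophil-marker cells described below, as 5′ to 3′ on the gene's strand in GRCm38.p6 and without any base that GENCODE places in an exon. Capitals mark a match to TTGCNNAA, a C/EBP-type motif searched on both strands, and the S100a8 stretch, which ends 94 bases before the start, has none.
S100a8 (chr3:90668821-90668977, plus strand): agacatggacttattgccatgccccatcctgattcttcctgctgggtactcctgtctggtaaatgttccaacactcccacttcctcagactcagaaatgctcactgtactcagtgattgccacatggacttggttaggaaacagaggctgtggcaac
S100a9 (chr3:90695722-90695971, minus strand): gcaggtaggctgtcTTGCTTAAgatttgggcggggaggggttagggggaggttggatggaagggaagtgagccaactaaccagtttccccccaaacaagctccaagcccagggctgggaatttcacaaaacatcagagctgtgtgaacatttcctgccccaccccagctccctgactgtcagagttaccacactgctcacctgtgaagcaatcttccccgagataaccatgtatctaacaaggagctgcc
Slpi (chr2:164356508-164356757, minus strand): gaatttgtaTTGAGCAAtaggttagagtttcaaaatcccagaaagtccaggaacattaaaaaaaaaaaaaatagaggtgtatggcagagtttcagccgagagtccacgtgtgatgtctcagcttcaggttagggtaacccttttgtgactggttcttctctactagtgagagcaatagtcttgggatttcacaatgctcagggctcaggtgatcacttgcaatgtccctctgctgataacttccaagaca

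The motif TTGCNNAA occurred in the 250 bases before the start of S100a9, Slpi and Lcn2, where the Lcn2 match lies inside an annotated exon, and in 9.56% of 32851 promoters in the table. TATAAA was found 31 bases before the start of S100a4 and 30 bases before that of S100a8, and in 12.4% of promoters, and the S100a8 match lies inside an exon that GENCODE annotates and is not printed. TGANTCA, an AP-1-type motif, occurred at 2 places before S100a11 and in 6.75% of promoters. These are matches of letters and do not show that a factor binds.

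**Figure D1:**
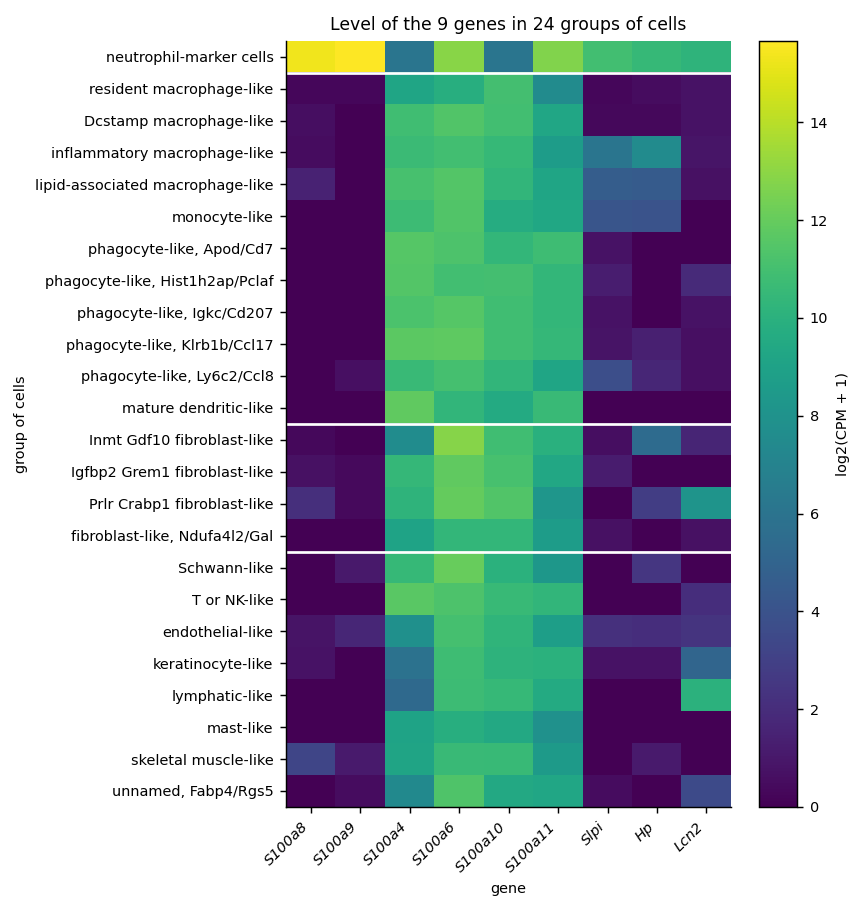
Level of the 9 genes (columns) in 24 groups of cells (rows), as log2(CPM + 1), with white lines between the neutrophil-marker cells, the phagocyte-like, the fibroblast-like and the other groups. S100a8 and S100a9 are bright only in the neutrophil-marker cells, while S100a4, S100a6, S100a10 and S100a11 are bright in nearly every row.

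S100a8 and S100a9 were, with few exceptions, UMIs of 5 cells. These 5 cells held 616 of 649 S100a8 UMIs (94.9%) and 791 of 807 S100a9 UMIs (98.0%). They were set apart by at least 3 of 12 neutrophil markers, other genes than these, making up at least 0.5% of their UMIs. This rule was chosen after the clusters were seen, with S100a8 and S100a9 among the leading genes of the cluster that held the cells. The selection is therefore not independent of the pair. Of the 5 cells, 3 were of library 2 and 2 of library 1. They had clustered with the monocyte-like cells, and their depth was 2586 to 3837 UMIs with a median of 2767, against a median of 10877 in all other cells.

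The first cell, of library 1, held 252 UMIs of S100a8 and 376 of S100a9 among its 3329. The second, of library 2, held 175 and 237 among 3837. The third, of library 1, held 100 and 91 among 2686. In these cells the pair was between 7.11% and 18.9% of all UMIs. The fourth and the fifth, both of library 2, held 48 and 41 UMIs of S100a8 and 30 and 57 of S100a9, which made 3.02% and 3.54% of their UMIs. As counts, all 5 stood far above every other cell, where the highest were 4 and 5. The gap is smaller as a share of UMIs, since 1 skeletal muscle-like cell held 4 UMIs of S100a8 among only 1326.

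The markers that selected these cells were present to unlike degrees, which describes the selection and is no further result. Hdc, the histidine decarboxylase gene, had 11 to 22 UMIs in each cell, and Csf3r, the G-CSF receptor gene, 4 to 14. Retnlg, a resistin-like gene of mouse neutrophils, had 8 to 25 UMIs in 4 cells and 0 in the fifth. Camp, Ltf, Ngp, Mpo and Elane, genes of granule proteins made in the bone marrow, were at 0 in all 5 cells, as were the macrophage receptor gene Csf1r, C1qa and Ly6c2. A further 2 cells had 3 neutrophil markers at no more than 0.0177% of their UMIs and held 0 UMIs of either gene.

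Whether a monocyte level of calprotectin genes was read depended on these cells alone. With them in its cluster, the monocyte-like group would show 380 CPM of S100a8 (351 to 411) and 488 CPM of S100a9 (455 to 523). Without them, 138 monocyte-like cells with 1605563 UMIs held 0 UMIs of both, with an upper interval end of 2.30 CPM. In the same way the log2 ratio of S100a8 in phagocyte-like over fibroblast-like cells was 4.56 with them in place and -1.92 without.

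**Figure D2:**
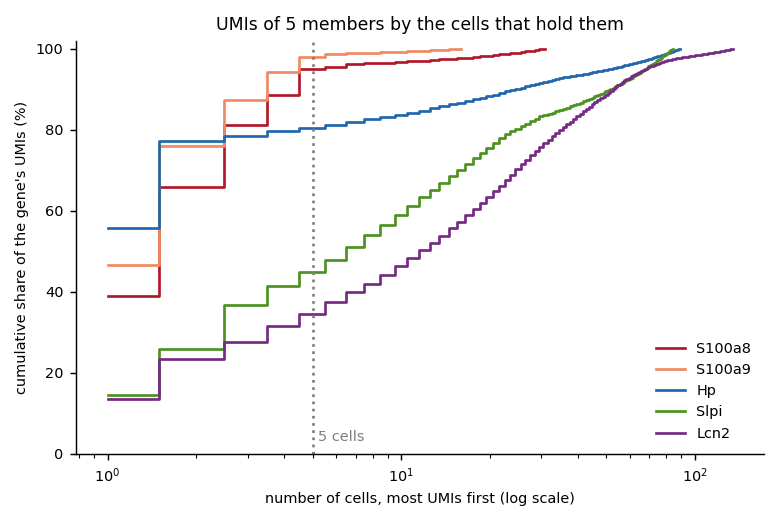
Cumulative share of the UMIs of S100a8, S100a9, Hp, Slpi and Lcn2 (vertical axis, percent) over the cells that hold most of them (horizontal axis, number of cells on a log scale). The first 5 cells hold 94.9% of S100a8 and 98.0% of S100a9, and 44.8% of Slpi and 34.5% of Lcn2.

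Outside the 5 cells, 33 UMIs of S100a8 and 16 of S100a9 were spread over 26 and 11 of 3792 cells. The union was 36 cells, or 0.949% (95% Clopper-Pearson interval 0.666 to 1.31), and 1 cell held both genes. In 23 of the 26 and 9 of the 11 cells the count was a single UMI. Phagocyte-like cells held 7 UMIs of S100a8 (0.275 CPM, 0.111 to 0.567) and fibroblast-like cells 14 (1.04 CPM, 0.568 to 1.74). S100a9 had 3 and 2 UMIs there. Neutrophil markers summed to 42.7 CPM in phagocyte-like cells, with 8 of 12 found and Ly6g, Camp, Ngp and Elane at 0, and to 3.04 CPM in fibroblast-like cells, with 7 of 12 found. The S100a8 intervals of phagocytes and stroma nearly met, with the higher value in stroma. Skeletal muscle-like cells had 7 UMIs of S100a8 at 8.56 CPM (3.44 to 17.6), all in library 2. Of these, 4 were in 1 cell of 1326 UMIs. The other cell with 4 UMIs of S100a8 was a Prlr Crabp1 fibroblast-like cell of 107228 UMIs.

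The mix of the pair, summed over cells, differed between the places. In the 5 cells there was 0.779 UMI of S100a8 per UMI of S100a9 (95% interval 0.700 to 0.866), with 0.754 in library 1 and 0.815 in library 2. Elsewhere the ratio was 2.06 (1.10 to 4.01), with 3.20 (1.12 to 11.2) in library 1 and 1.55 (0.683 to 3.65) in library 2. The pooled intervals do not overlap, while those of library 2 do. These intervals treat UMIs as independent, but the 5 cells were unlike. The third held 100 UMIs of S100a8 and 91 of S100a9 and the fourth 48 and 30. The other cells of the 5 held more S100a9 than S100a8. Intervals that lie apart therefore do not show a difference beyond the spread between cells. By group, the Prlr Crabp1 fibroblast-like cells held 11 UMIs of S100a8 and 1 of S100a9, and the endothelial-like cells 3 and 8.

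Values that bear on free RNA were taken from the haemoglobin genes, which belong to red cells. Haemoglobin UMIs occurred in 19.7% of phagocyte-like and 22.1% of fibroblast-like cells, at 18.9 and 17.5 CPM, and at 2344 CPM in endothelial-like cells. The 1460 barcodes that failed the filter held 4 UMIs of S100a8 and 1 of S100a9, or 0.740 and 0.185 CPM. Of these barcodes 1149 were over the mitochondrial limit, so their counts are not a measure of free RNA. The part of free RNA in the scattered UMIs of S100a8 and S100a9 was not tested.

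The other members were present in the 5 cells to unlike degrees. S100a6 was at 7629 CPM (6304 to 9150) and S100a11 at 6643 CPM (5410 to 8071), the latter above every other group, the next being 1783 CPM, while the S100a6 interval holds the level of the highest fibroblast-like group. S100a4 and S100a10 had 1 UMI each. Slpi had 30 UMIs over all 5 cells, Hp 22 over all 5 and Lcn2 18 over 3 of them. In the list of 12 neutrophil granule and protease genes, Lyz2 had 20 UMIs, Pglyrp1 11, Mmp9 9 and Mmp8 3, and the other 8 had 0.

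S100a4, a binding partner of non-muscle myosin linked with cell movement, was highest in leukocyte groups. It was found in 68.8% of all cells. It was highest in mature dendritic-like cells, with 3638 CPM (3423 to 3863), followed by phagocyte-like cells led by Klrb1b and Ccl17 with 3428 CPM (3369 to 3488), whose interval overlapped it. T or NK-like cells had 3181 CPM and phagocyte-like cells led by Apod and Cd7 had 3023 CPM. The lowest levels were 39.5 CPM (27.5 to 54.9) in lymphatic-like and 59.8 CPM (50.9 to 69.7) in keratinocyte-like cells. Over the 23 groups of at least 20 cells, 12 of the pairs of neighbours in this order had overlapping intervals.

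Within the fibroblast-like cells S100a4 ran from 193 CPM in the Inmt Gdf10 to 1368 CPM in the Igfbp2 Grem1 group. The latter stood at 3038 CPM in library 1, with 22 cells, and 1226 CPM in library 2, with 180 cells. Among phagocyte-like cells the resident macrophage-like group was lowest with 599 CPM (577 to 622). After thinning to 2000 UMIs per cell, 50.8% of resident macrophage-like cells had a UMI (72.5% unthinned), against 84.2% of monocyte-like cells (97.8% unthinned), at median depths of 8819 and 10877 UMIs, and against 5.77% of lymphatic-like cells (23.2% unthinned, median depth 9323).

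Among the groups of at least 20 cells, S100a6, the calcyclin gene, was highest in most fibroblast-like groups and in Schwann-like cells. Few cells lacked it. It was found in 92.9% of cells. The Inmt Gdf10 fibroblast-like cells had the highest level among the 23 groups, 7274 CPM (7189 to 7360), and the values of the libraries, 4442 and 8098 CPM, did not overlap. Schwann-like cells followed with 4171 CPM, Prlr Crabp1 fibroblast-like cells with 4015 and Igfbp2 Grem1 fibroblast-like cells with 3738 CPM. Fibroblast-like cells led by Ndufa4l2 and Gal were an exception, with 1301 CPM (1261 to 1342), below most phagocyte-like groups. The resident macrophage-like cells were again lowest, with 904 CPM (876 to 932), and mast-like cells overlapped them with 919 CPM (782 to 1075).

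S100a10, whose protein p11 binds annexin A2 and the scaffold protein AHNAK, had the smallest range among the 4 as a fold, 3.93 from the lowest to the highest group. Over the 23 groups it went from 695 CPM in cells led by Fabp4 and Rgs5 to 2734 CPM (2679 to 2790) in Prlr Crabp1 fibroblast-like cells. Unlike S100a4, S100a6 and S100a11, it was high in resident macrophage-like cells, with 1995 CPM (1954 to 2037), and low in monocyte-like cells, with 833 CPM (789 to 879). The libraries gave 1835 and 2564 CPM for the former and 699 and 1637 CPM for the latter.

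Among the groups of at least 20 cells, S100a11, another annexin-binding member, was highest in 2 unnamed phagocyte-like groups and in mature dendritic-like cells. Phagocyte-like cells led by Apod and Cd7 had 1783 CPM (1716 to 1853), mature dendritic-like cells 1554 (1415 to 1703) and those led by Klrb1b and Ccl17 1406 (1369 to 1445). The resident macrophage-like cells had 186 CPM (174 to 200), the lowest value, and it was 186 and 188 CPM in the libraries. Next above were mast-like cells with 244 CPM, which overlapped them, and Prlr Crabp1 fibroblast-like cells with 303 CPM.

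**Figure D3:**
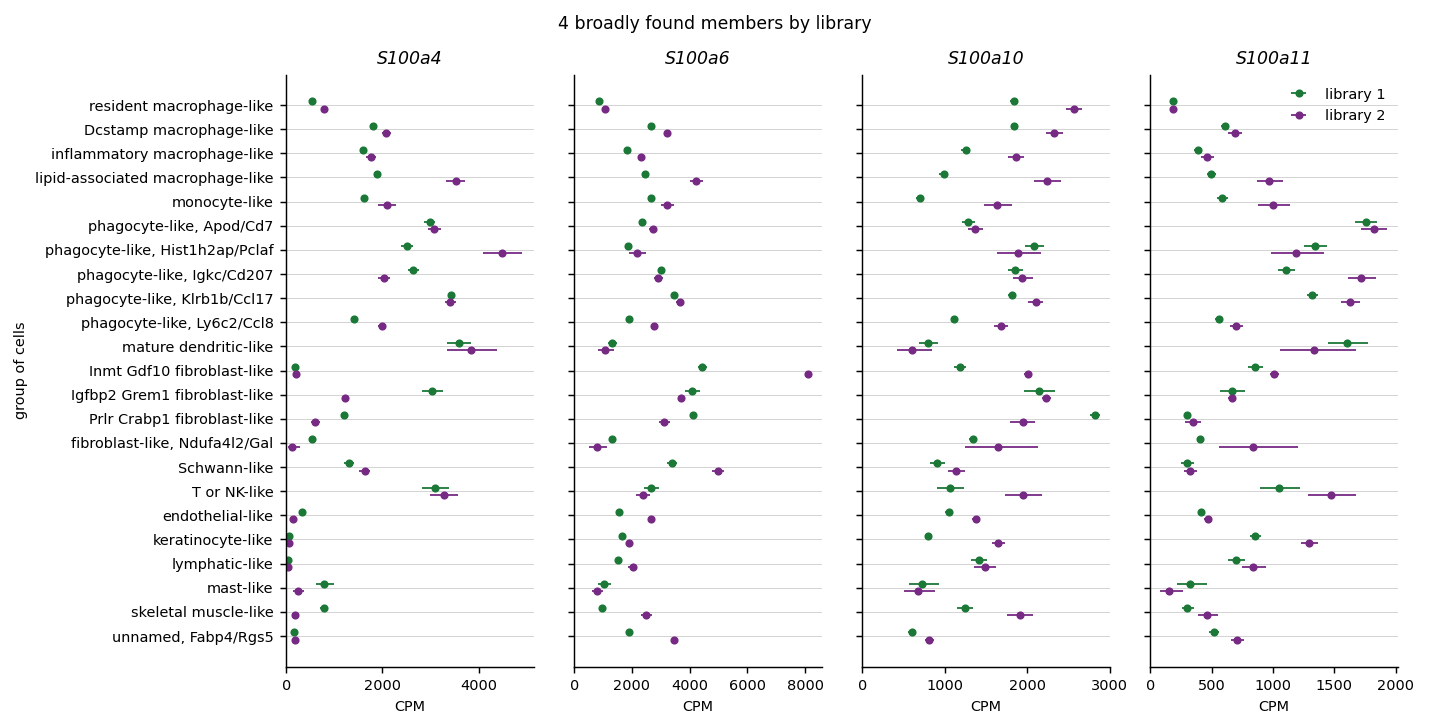
Level in CPM (horizontal axes from 0) of S100a4, S100a6, S100a10 and S100a11 in 23 groups of cells (rows), with points for library 1 in green and library 2 in purple and bars for the 95% Poisson interval. S100a10 and S100a11 sit further right in library 2 in most rows, and the Inmt Gdf10 fibroblast-like cells lead S100a6 in both libraries.

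Library 2 had the higher level in most groups for S100a6, S100a10 and S100a11, but less so for S100a4. In 20 groups with at least 10 cells of each library, S100a11 was higher in library 2 in 19, as were 0.328% of the 3050 genes with a mean of at least 50 CPM in as many groups or more. S100a10 was higher in 18 of 20 (1.28% of genes reached as many). S100a6 was higher in 15 of 20 (9.97% of genes) and S100a4 in 13 of 20 (22.9% of genes), and where the intervals lay apart S100a4 was higher in library 2 in 7 groups and in library 1 in 6.

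The median ratio of library 2 to library 1 over the 20 groups was 1.33 for S100a10, 1.23 for S100a6, 1.20 for S100a11 and 1.08 for S100a4. The largest for S100a10 was 2.34 in monocyte-like cells, of which library 2 had 14. The exceptions for S100a10 were the Prlr Crabp1 fibroblast-like cells, with 2821 CPM in library 1 and 1942 in library 2, and the mast-like cells. The libraries are of unknown age and 1 each, so that age, batch and animals cannot be told apart.

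Between compartments, S100a4 and Slpi were at least 2-fold higher in phagocyte-like than in fibroblast-like cells and S100a8 and Lcn2 at least 2-fold lower, which made 2 and 2 of the 8 members with at least 20 UMIs. Of all 13714 genes with as many UMIs, 19.5% were higher and 28.6% lower by this fold, so that 2 of 8 in each direction is near the background. Those lower were 1 in library 1 alone, where S100a8 had too few UMIs to be compared. Those higher were 4 with the neutrophil-marker cells left in their cluster. The S100a8 call rests on 7 and 14 UMIs, and its interval (-3.47 to -0.51) reaches inside 2-fold. S100a4 was at 1969 and 787 CPM, a log2 ratio of 1.32 (95% interval 1.29 to 1.35), with 1.10 in library 1 and 1.71 in library 2. Slpi was at 10.6 and 0.593 CPM, a log2 ratio of 4.16 (3.16 to 5.39).

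S100a6 went the other way, with 2344 CPM in phagocyte-like and 4264 CPM in fibroblast-like cells, or -0.86 (-0.88 to -0.85) as a log2 ratio. This does not hold for every fibroblast-like group, since the cells led by Ndufa4l2 and Gal stood at 1301 CPM. S100a10 (-0.31), S100a11 (0.36) and Hp (0.52) lay between the folds, and S100a11 was -0.08 as a mean over cells. S100a9, with 3 and 2 UMIs, was not compared. The median log2 ratio was 0.02 over the members and -0.18 over all genes compared.

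**Figure D4:**
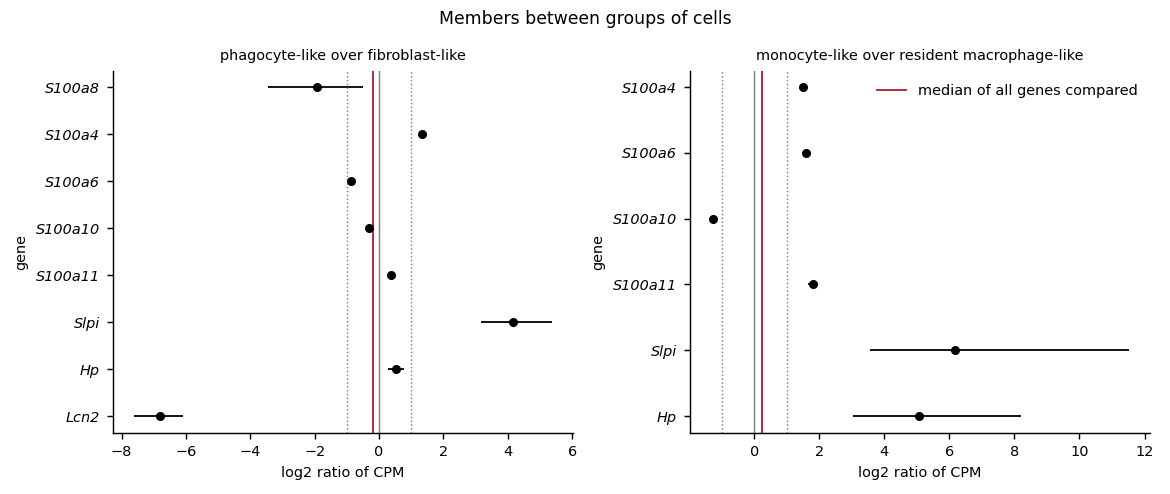
Log2 ratio of CPM (horizontal axes) of the members with at least 20 UMIs, phagocyte-like over fibroblast-like cells on the left and monocyte-like over resident macrophage-like cells on the right, with bars for 95% counting intervals, dotted lines at 2-fold and a red line at the median of all genes compared. On the right 5 members lie above 2-fold and S100a10 alone lies below.

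Monocyte-like cells, marked by Ly6c2 and Plac8, were set beside resident macrophage-like cells, marked by Folr2 and Lyve1. This pair was chosen because it was known from earlier results to differ most in S100 level. Any excess of members over the share of all genes is therefore partly fixed by that choice. Of the 6 members with at least 20 UMIs, 5 were at least 2-fold higher in the monocyte-like cells and 1 lower, against 17.6% and 12.9% of 9194 genes. In library 1 alone and in library 2 alone 3 were higher, in place of 5, since Slpi and Hp fell below 20 UMIs and were not compared. S100a11 went from 186 to 647 CPM, a log2 ratio of 1.80 (1.66 to 1.93), S100a6 from 904 to 2746 CPM (1.60, 1.54 to 1.67) and S100a4 from 599 to 1684 CPM (1.49, 1.41 to 1.57). These were 3.47, 3.04 and 2.81 times the level of the resident macrophage-like cells. Within libraries the log2 ratios were 1.66 and 2.41 for S100a11, 1.64 and 1.59 for S100a6 and 1.57 and 1.40 for S100a4.

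S100a10 had the opposite sign, with a log2 ratio of -1.26 (-1.34 to -1.18), with -1.39 in library 1 and -0.65 in library 2. It was below 0 under all 15 alternatives tried, from -0.65 to -1.46, but 8 of them put it within 2-fold. Slpi, with 26 and 1 UMIs, and Hp, with 24 and 2 UMIs, had log2 ratios of 6.18 (3.57 to 11.5) and 5.06 (3.05 to 8.19), and that of Hp turned to -2.88 when up to 20% mitochondrial UMIs were allowed. S100a8 (0 and 1 UMIs), S100a9 (0 and 1) and Lcn2 (0 and 3) were not compared. The median was 1.70 over the 6 members and 0.23 over all genes compared. The pair of groups was chosen with earlier results on the S100 genes known.

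Partners of the S100 proteins were near the background of 17.6% higher and 12.9% lower. Of 6 listed genes (Anxa1, Anxa2, Anxa6, Anxa11, Ahnak and Myh9), 0 were at least 2-fold higher in monocyte-like than in resident macrophage-like cells and 1 was lower. Ahnak, a giant membrane scaffold gene, went from 2833 CPM in the resident macrophage-like to 1287 CPM in the monocyte-like cells, which is a log2 ratio of -1.14 (-1.21 to -1.07) and has the sign of S100a10. Anxa2, the annexin that p11 binds, had a log2 ratio of 0.75 (0.65 to 0.86), with the sign of S100a11. Between compartments, Anxa1 had a log2 ratio of -1.19 in phagocyte-like over fibroblast-like cells, and the other 5 were within 2-fold.

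Over the 23 groups of at least 20 cells, which share libraries and depth, S100a10 had a Pearson correlation of log2(CPM + 10) of 0.07 with Anxa2 and 0.47 with Ahnak, while S100a11 had 0.70 with Anxa2. The genes most like S100a4 were Lsp1 (0.87), Emp3 (0.87) and Prex1 (0.84). Those most like S100a10 were Cdv3 (0.77), Anxa1 (0.66) and Denr (0.66). For S100a6 they were Abca2 (0.73), Eif5a (0.71) and Slc1a5 (0.70), and for S100a11 Rpsa, Lrrk1 and Rpl39 (0.77 each). Among the 4 members themselves the highest value was 0.35, between S100a6 and S100a10.

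**Figure D5:**
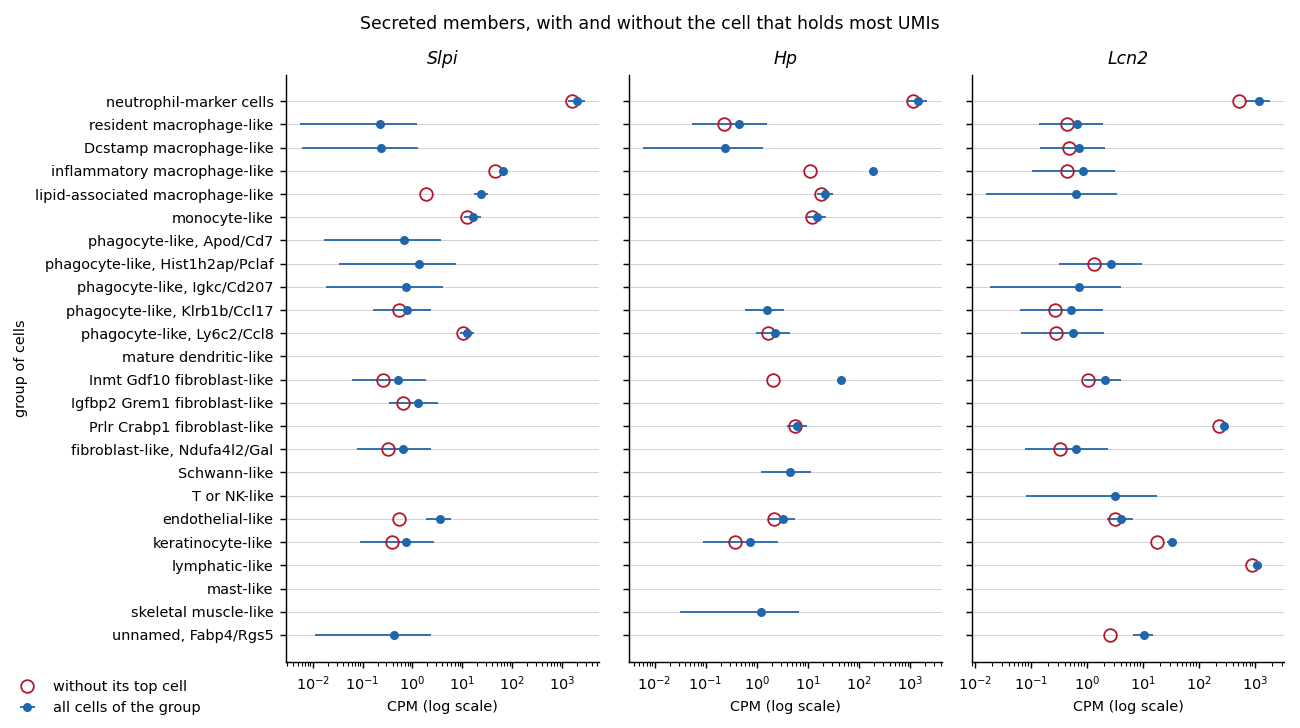
Level in CPM (log axes) of Slpi, Hp and Lcn2 in 24 groups of cells (rows), with blue points for all cells, bars for 95% Poisson intervals and red rings for the level without the cell that holds most UMIs, drawn where the value is above 0. The red ring lies far to the left for Hp in inflammatory macrophage-like and Inmt Gdf10 fibroblast-like cells.

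Slpi was found in few cells, most of them phagocyte-like. Of its 324 UMIs, 270 (83.3%) lay in phagocyte-like cells, in 67 of 2034, and 8 in fibroblast-like cells. The inflammatory macrophage-like cells, marked by Cxcl3 and Acod1, held 153 UMIs in 25 of 200 cells, or 65.9 CPM (55.9 to 77.3), with 78.0 and 38.3 CPM in the libraries. This level moved with the clustering, from 0 CPM with the listed genes kept among the variable genes to 12.1 CPM with 3000 variable genes and 62.1 CPM at resolution 2. Phagocyte-like cells led by Ly6c2 and Ccl8 had 12.6 CPM, monocyte-like cells 16.2 CPM, and resident and Dcstamp macrophage-like cells 1 UMI each.

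Single cells carried much of this level. The highest cells held 47, 37 and 35 UMIs of Slpi at depths of 10718, 13892 and 13784 UMIs. The third of these was the source of the lipid-associated macrophage-like level, which went from 23.9 CPM to 1.90 CPM without it. In thinned cells a UMI of Slpi was found in 0.967% of phagocyte-like cells (0.583 to 1.51), against 3.29% unthinned, and in 0 of 780 fibroblast-like cells, against 0.846% unthinned (7 of 827). Median depths were 11044 and 13097 UMIs, so that fibroblast-like cells were the deeper ones.

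The 67 phagocyte-like cells with a UMI of Slpi were compared with the 1967 without one. Inflammatory macrophage markers summed to 1653 CPM in the former and 965 CPM in the latter, monocyte markers to 2265 and 1043 CPM and resident macrophage markers to 1835 and 2370 CPM. Neutrophil markers were at 82.3 and 40.5 CPM. The genes most like Slpi over the 23 groups were Acod1 (0.86), itself a marker that named the inflammatory group, Trem2 (0.81) and Hp (0.80). The value for Hp includes the 2 cells described below that held 77.3% of its UMIs. Of the 67 cells, 15 (22.4%) also had a UMI of Hp, and these were 27.8% of the 54 phagocyte-like cells with Hp.

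Hp was mostly a matter of 2 cells. A cell of 32392 UMIs in the inflammatory macrophage-like group held 419 of 753 Hp UMIs, and a cell of 45812 UMIs in the Inmt Gdf10 fibroblast-like group held 163, together 77.3%. Both were in library 1. They were also the only cells with at least 3 of the 4 adipocyte markers making 0.5% or more of their UMIs, a rule chosen after their Hp counts were seen, with 598 and 959 UMIs of Adipoq, Plin1, Car3 and Cidec. The first held 210 UMIs of phagocyte markers and the second 423 of fibroblast markers, so that each carried markers of 2 cell types. The marker share was 1.85% and 2.09% in these cells, and 2.56% in the highest cell outside the pair, which had fewer than 3 of the markers.

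Without these cells the levels of their groups changed by more than 10 times. The inflammatory macrophage-like cells went from 191 to 10.9 CPM (7.07 to 16.1), and the Inmt Gdf10 fibroblast-like cells from 44.3 to 2.10 CPM (0.905 to 4.13). The rest was 171 UMIs in 87 cells with at most 9 UMIs each. Beside the 5 neutrophil-marker cells it was highest in the lipid-associated macrophage-like cells with 22.0 CPM (15.3 to 30.6) and next in the monocyte-like cells with 14.9 CPM (9.58 to 22.2). With these cells left out, Hp stood at 3.97 CPM in phagocyte-like and 2.16 CPM in fibroblast-like cells, or 0.88 (0.27 to 1.53) as a log2 ratio in place of 0.52.

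Phagocyte-like cells with a UMI of Hp held more monocyte marker UMIs. Without the first of the 2 cells above there were 53, and monocyte markers summed to 3347 CPM in them against 1031 CPM in the 1980 cells without Hp. Inflammatory macrophage markers summed to 781 and 1010 CPM. Thinned to 2000 UMIs, 4.51% of monocyte-like cells had a UMI of Hp (1.67 to 9.56), against 8.70% unthinned. Genes most like Hp over the groups were Slpi (0.80), Cfd (0.79), an adipocyte-secreted complement factor gene, and Il1a (0.69). These values were taken with both of the 2 cells above in their groups, which held 77.3% of Hp UMIs. They therefore do not describe Hp in the remaining cells alone.

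Lcn2 was found in lymphatic-like cells and in 1 of the 4 fibroblast-like groups, and at few UMIs in phagocytes. Lymphatic-like cells held 968 of its 2087 UMIs (46.4%), in 47 of 56 cells, at 1092 CPM (1025 to 1163), with 771 and 1625 CPM in the libraries. A single library 2 cell of 97127 UMIs held 281 of the 968, so that the library 2 value rests partly on 1 cell. Prlr Crabp1 fibroblast-like cells held 944 UMIs (45.2%), in 38 of 110 cells, at 280 CPM (262 to 298). Phagocyte-like cells held 16 UMIs in 16 cells, or 0.629 CPM, and the log2 ratio of phagocyte-like to fibroblast-like cells was -6.81 (-7.63 to -6.11). Of the 954 fibroblast-like UMIs, 944 were in the Prlr Crabp1 cells, and the Inmt Gdf10, Ndufa4l2 and Gal, and Igfbp2 Grem1 groups stood at 2.07, 0.649 and 0 CPM, so that the ratio does not describe fibroblast-like cells in general.

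The forms of these levels were unlike. In lymphatic-like cells a UMI of Lcn2 was found in 71.2% of thinned cells (56.9 to 82.9) and 83.9% unthinned. In the Prlr Crabp1 group it was in 13.2% of thinned cells (7.41 to 21.2) and 34.5% unthinned, and the cells with Lcn2 had a median depth of 78456 UMIs against 6356 in those without. The 5 highest cells held 46.8% of the UMIs of the lymphatic-like and 53.2% of those of the Prlr Crabp1 group. Libraries differed more in the latter, with 304 CPM (285 to 325) in library 1 and 53.9 CPM (31.9 to 85.1) in library 2.

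Other cells added little Lcn2. Keratinocyte-like cells, known as a source of this lipocalin in inflamed skin, held 91 UMIs in 5 of 77 cells (33.4 CPM). Blood endothelial-like cells held 15 UMIs (4.03 CPM, 2.25 to 6.64) in 295 cells. Over the 23 groups the genes most like Lcn2 were Megf6 (0.92), Nrxn2 (0.92) and Rspo3 (0.91). The highest single cell, with 281 Lcn2 UMIs, held 2141 UMIs of the lymphatic markers.

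Of the other genes named S100, 12 were in the matrix and 10 had at least 20 UMIs in the cells kept, among them S100pbp, which encodes a binding protein and no S100 protein. Several had most of their UMIs in 1 type of cell. S100b, a Schwann cell gene, was at 433 CPM in Schwann-like cells with 384 of its 475 UMIs, S100a14 was at 644 CPM in keratinocyte-like cells with 1755 of 1813, and S100g had 57 of 59 UMIs in the Prlr Crabp1 group. S100a16 was at 148 CPM in fibroblast-like and 2.51 CPM in phagocyte-like cells, and S100a13 was at 282 and 142 CPM. Of 8 of these genes with at least 20 UMIs in both compartments together, 1 was at least 2-fold higher and 4 were lower in phagocyte-like cells, against 19.5% and 28.6% of all genes, which is the background for the next lists too.

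Receptors of the members were found in part. Of 11 listed, 9 could be compared between the compartments, and 4 were higher in phagocyte-like cells and 2 lower, Cd163 among the former. Cd163, the receptor gene for haptoglobin bound to haemoglobin and one of the markers used for naming, was at 680 CPM in resident macrophage-like and 19.3 CPM in monocyte-like cells (log2 ratio -5.14). Tlr4, a receptor gene tied to calprotectin, was at 10.6 CPM in phagocyte-like and 13.3 CPM in fibroblast-like cells. Ager, which encodes another S100 receptor, had 5 and 12 UMIs, and Slc22a17, a Lcn2 receptor gene, had 30 and 143 UMIs, a log2 ratio of -3.17 (-3.79 to -2.59).

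Other secreted acute-phase and antimicrobial genes were divided between the compartments. Of 13 listed, 11 could be compared, with 4 at least 2-fold higher and 6 lower in phagocyte-like cells. Wfdc17, a whey acidic protein relative of Slpi, had a log2 ratio of 6.21 (6.01 to 6.42), and Chil3, a monocyte marker, 6.70 (5.14 to 8.98). Saa2 and Ptx3, an acute-phase apolipoprotein gene and a pentraxin gene, were lower, with log2 ratios of -9.01 (-14.3 to -6.52) and -8.75 (-9.25 to -8.29). In the neutrophil granule list, 6 of 12 could be compared and 5 were higher in phagocyte-like cells, led by Mmp9 (6.59), Cybb (6.40) and Lyz2 (5.90). Lyz2 is also a marker that named the phagocyte-like cells, so its ratio was partly fixed by the naming. Elane, Ctsg, Camp, Ltf and Ngp had at most 12 UMIs in either compartment.

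Between the phagocyte groups these lists were mixed in direction, on few genes and against 17.6% higher and 12.9% lower over all genes. In monocyte-like over resident macrophage-like cells, 0 of 4 other S100 genes were at least 2-fold higher and 2 lower (S100a1 and S100a16), and of 7 receptor genes 1 was higher (Plscr1) and 2 lower (Cd33 and Cd163). Of 3 granule genes Cybb, an oxidase subunit gene, was higher and Mmp9, a gelatinase gene, lower. Of 4 acute-phase genes, Chil3 and the complement gene C3 were higher and Lrg1 lower.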

How the data were processed

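The authors made the counts with Cell Ranger 4.0.0 on mm10, per the submitters' processing notes, with 3′ v3.1 chemistry, and deposited 1 matrix of whole-number UMI counts for both libraries. The sources used here do not say whether cells were filtered before deposit, and 0 columns of other samples were left out. A UMI counts 1 captured 3′ end, so levels are not scaled by gene length. Depth was 35821853 UMIs in library 1 and 20382748 in library 2.

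Barcodes with 500 genes, 1000 UMIs and no more than 10% mitochondrial UMIs were kept. After scaling to 10000 UMIs a cell and log transformation, Leiden clusters (resolution 1, seed 1) were made on 15 neighbours from 30 principal components of 2000 variable genes (Python 3.11.15, scanpy 1.11.5, leidenalg 0.10.2, igraph 0.11.9, numpy 2.4.6, scipy 1.17.1). Clusters were named where at least 3 listed markers were at 20 CPM and at least 2-fold above the 0.25 quantile of clusters (0.5 for subgroups) with a lead of 0.5 over the next list. This rule was set after the clusters were seen, while the 28 marker lists were written earlier. Cells with at least 3 of 12 neutrophil markers at 0.5% of UMIs formed a group of their own, a choice also made after the clusters were seen. Scrublet called 6 doublets, too few to count as treatment.

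UMIs were summed per group and given as CPM with exact Poisson intervals, shares with Clopper-Pearson intervals after thinning to 2000 UMIs, and log2 ratios of genes with at least 20 UMIs with exact binomial intervals. Called means at least 2-fold. Sums of 0 allow 3 counts. No p-value was computed, since cells are not replicates. Intervals cover counting error only. On simulated counts with 200 genes changed 4-fold, the phagocyte-like to fibroblast-like ratio over 13557 genes had medians of 2.00 and -1.95, and 95.9% of intervals held the true value. For monocyte-like over resident macrophage-like cells, over 9026 genes, these were 2.00, -1.98 and 96.0%. The simulated counts had only the Poisson error that the intervals assume, without the gathering of UMIs in single cells. They therefore check the calculation and not the width of the intervals for genes such as Hp. Gene positions are from GENCODE vM21 and starts from RefSeq.

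The members, the lists and the pair of phagocyte groups were chosen with earlier results of these data known. The named genes are the 9 members, other S100 genes with at least 20 UMIs, the genes of 4 lists and the 3 genes most correlated with each member. Some of these, such as Lyz2, Cd163, Acod1, Il1a and Chil3, are also markers that named groups, so their differences between those groups are partly fixed by the naming. Alternatives changed the filter, the clustering, the doublets, the library, the weighting of cells, the top cell and the thinning.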

Additional observations from a re-analysis of the deposited data

Results flagged for a closer look

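UMIs of 8 members were also found above 3 counts in the 1460 barcodes that failed the filter on cells, which no comparison used. They were 2300 UMIs of S100a4, 9991 of S100a6, 3747 of S100a10 and 2095 of S100a11, at 426, 1849, 693 and 388 CPM, below the 1280, 2823, 1622 and 699 CPM of the cells kept. Slpi had 8 UMIs, Hp 11, Lcn2 56 and S100a8 4 there.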

How the results depend on the processing

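Of 662 values under 17 alternative settings, 449 were labelled as unchanged and the others moved by more. Unchanged meant within counting error of the reported value or, for counts of members, within a fixed fold of it. Among log2 ratios 198 of 201 kept their sign and 3 did not. The log2 ratio of S100a8 in phagocyte-like over fibroblast-like cells was 4.56 with the neutrophil-marker cells left in their cluster, an alternative chosen after seeing the data, and that of Hp in monocyte-like over resident macrophage-like cells was -2.88 with up to 20% mitochondrial UMIs. The cause of the latter was not tested. S100a11 in phagocyte-like over fibroblast-like cells was -0.08 as a mean over cells and 0.36 as a sum.

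Of the 8 members compared between the compartments, 4 in place of 2 were higher with the neutrophil-marker cells left in their cluster. Those lower were 1 in place of 2 under that setting, with cells grouped by summed markers, in library 1 alone and without the cell with most UMIs. In monocyte-like over resident macrophage-like cells, those higher were 3 in place of 5 in library 1 alone and in library 2 alone. Slpi and Hp had too few UMIs there to be compared. With the neutrophil-marker cells left in place 8 were higher. The count was also 8 with no minimum of UMIs, but the added S100a8, S100a9 and Lcn2 had 0 UMIs in monocyte-like cells. Their 0 was set to 3 counts, so these calls do not mean a higher level. Those lower were 0 in place of 1 under the stricter filter, resolutions 0.5 and 2, summed markers, listed genes kept among the variable genes, Scrublet calls removed and library 2 alone. The neutrophil-marker cells held 92.6% of S100a8 without the top cell, and of S100a9 98.9% in library 1 and 96.7% in library 2. Their S100a8 to S100a9 ratio was 0.902 under the stricter filter and 0.877 without the top cell. Hp in inflammatory macrophage-like cells ran from 0 to 272 CPM over the settings and Slpi there from 0 to 78.0 CPM.

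No paired analysis was possible because each age is 1 library and the suffix is not tied to an age. With 1 library per age, p-values cannot be had, and counting intervals leave out the spread between mice. S100a8, S100a9, Slpi and Hp rest on few cells, so depth limits their levels in most groups to a few UMIs.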
